A study of Mus musculus with 12 samples.

Results

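The C/EBP and PPAR genes encode the transcription factors at the centre of fat-cell differentiation. Rows with the gene names Cebpa, Cebpb, Cebpd, Cebpg, Cebpz, Pparg, Ppard, Ppara and Srebf1 were taken from both deposited tables, 9 genes of the 19429 listed in either table. All 9 were listed in both tables. The libraries were made from messenger RNA of primary cells cultured from the stromal vascular fraction (SVF) of white fat, the non-adipocyte cells that hold the progenitors of fat cells. The mice were C57BL/6 and 6 weeks old, and all cultures were grown to confluency.

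There were 4 groups of 3 libraries. TKO cells lacked every miR-26 gene: they were miR-26a-1-/- and miR-26a-2-/- and, in addition, miR-26b-/-. WT cells were wild type. Dox cells carried M2rtTA and eGFP.miR-26a, a transgene that holds miR-26a, and were kept in doxycycline, 1 mg/ml, over 4 days. CTL cells carried the same transgenes without doxycycline. M2rtTA is a transactivator that drives a transgene once doxycycline is bound, so CTL shares the transgenes with Dox but not the drug. No library of doxycycline on cells without the transgene was analysed here, and neither was the promoter that drives M2rtTA. TKO against WT asks what changes when miR-26 is absent, and Dox against CTL asks what changes when miR-26a is induced. Neither miR-26 nor the transgene has a row in the tables, so loss and induction were not checked here. The labels do not say whether replicates came from separate animals or cultures, so p-values measure only the spread between these libraries.

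In textbook adipogenesis, C/EBPβ and C/EBPδ rise early after a hormonal stimulus and switch on Cebpa and Pparg. C/EBPα and PPARγ then maintain each other and activate the genes of the mature fat cell. PPARs bind DNA with a retinoid X receptor and release corepressors for coactivators when a fatty-acid ligand binds. SREBP-1, the product of Srebf1, is held in the endoplasmic reticulum and, once cut free, drives fatty acid synthesis. MicroRNAs of the miR-26 family lower messenger RNAs that pair with their seed, the bases 2 to 8 of the mature strand.

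The mature strands deleted in TKO cells share that seed, shown in capitals in these RefSeq sequences (GRCm38.p6), because it defines which of the 9 genes could pair with them.
mmu-miR-26a-5p: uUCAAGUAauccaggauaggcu
mmu-miR-26b-5p: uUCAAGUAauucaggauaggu

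In 1 transcript per gene (GENCODE vM21, GRCm38), 3 of the 9 genes had a seed match of 7 or 8 bases in the 3′ UTR, namely Cebpa, Cebpg and Cebpz. The match ACTTGAA pairs with bases 2 to 7 followed by an A, and TACTTGAA pairs with the whole seed and the A. Among genes of the TKO table with a 3′ UTR, 20.4% held such a match. Cebpa held 1 match, in exon 1 at chr7:35121325-35121331 on the + strand, 827 bases after the stop codon. Cebpg held 3 matches of the shorter kind in exon 2, 27, 1237 and 1964 bases after the stop codon. Cebpz held a shorter match and a full match side by side in exon 16 on the - strand, the full one at chr17:78919112-78919119. The windows around the Cebpa match and the full Cebpz match are shown with the match in capitals, since these genes moved in opposite directions in TKO cells.
Cebpa site: ttgctgaaggaACTTGAAgcacaatcgat
Cebpz site: acttgaattttTACTTGAAgaaaaacatac

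Cebpb, Cebpd, Pparg, Ppard, Ppara and Srebf1 held no match of 7 or 8 bases in these transcripts. A match is a description of the letters and was not tested as a binding site.

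The deposited values are read counts scaled by library, called scaled read counts below. Whole reads recovered from them summed per library to 71455171 to 83461531 in TKO, 54978109 to 61307152 in WT, 19301969 to 25785439 in Dox and 20182665 to 24122542 in CTL. The 9 genes were covered by at least 29 recovered reads in every library, and all but Ppara by at least 302. Fold changes are on the log2 of the scaled read count plus 1, tested with limma over 12649 genes in TKO against WT and 12634 genes in Dox against CTL, and called at an adjusted p under 0.05. Markers of stromal progenitors, such as Pdgfra, Thy1 and Col1a1, summed to 14655 to 16207 in TKO, 14804 to 16138 in WT, 18156 to 22625 in Dox and 18674 to 21995 in CTL. Of these 11 markers, 3 were called lower in TKO and 0 higher, where 22.7% of all genes tested were called lower. Mature-adipocyte markers summed to 54.8, 63.7 and 8.21 in TKO and to 8.597 to 16.1 in WT, with Lep not listed. Macrophage and leukocyte markers summed to 57.2, 267 and 50.1 in TKO and to 37.5 to 62.5 in WT, with Cd3e and Cd79a not listed. Epithelial markers summed to 11.4, 24.0 and 98.9 in TKO and to 16.4 to 52.1 in WT, with Krt5 not listed. Endothelial, mesothelial, Schwann and skeletal muscle marker sums overlapped between TKO and WT. In bulk libraries such as these, fewer cells of a type and less RNA per cell cannot be told apart.

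In TKO against WT, 4 of the 8 genes tested passed, Cebpa and Srebf1 higher and Cebpz and Ppard lower. Over all genes tested, 45.8% passed, 23.2% higher and 22.7% lower, so a share of this size is close to the background and says nothing particular to these genes. Ppara fell below the minimum of a scaled read count of 1 in 3 libraries and was not tested. The groups did not overlap for 5 of the 8 genes, and for 58.8% of all genes tested. Scaling by library size moved the median of all genes by 0.11, with 30.2% then higher and 15.1% lower (45.4% in all) and 3 of these genes higher and 1 lower. After correction for transcript length and GC content, described below, 24.4% were higher and 21.9% lower (46.3% in all), with 2 of these genes higher and 2 lower. Pparg, the factor that defines the fat cell, was not among the genes that passed.

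**Figure D1:**
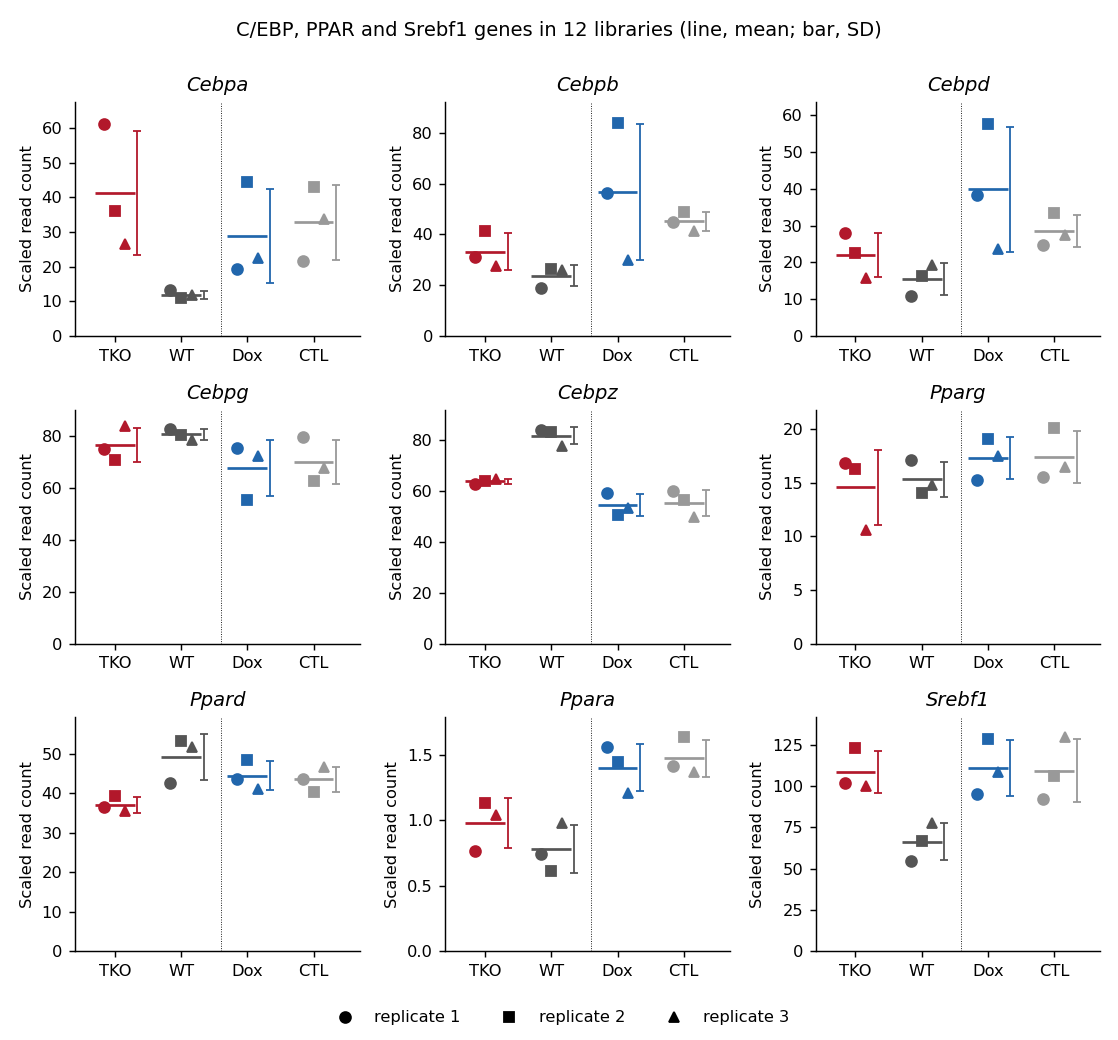
Scaled read count (vertical axes, starting at 0) of the 9 genes in each library of TKO, WT, Dox and CTL. Each symbol is a library, the line is the mean and the bar the SD (n = 3). Cebpa lies at 26.5 or more in TKO and at 13.15 or less in WT, while Pparg overlaps between TKO and WT and between Dox and CTL. The dotted line parts the tables, which were normalized separately.

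Cebpa (ENSMUSG00000034957.10, chr7:35119293-35121928 on the + strand of GRCm38, the build of all gene positions here, a single exon) encodes C/EBPα, which maintains the fat-cell state. Its scaled read count was 61.2, 35.95 and 26.5 in TKO libraries, against 13.15, 10.9 and 11.8 in WT libraries. Every TKO library lay above every WT library, and the TKO libraries differed from each other by more than the WT libraries did. The mean was 41.2 ± 18.0 in TKO and 11.95 ± 1.13 in WT (SD, n = 3). The log2 fold change was 1.63 ± 0.28 (SE), about 3.08-fold on that scale, with a limma adjusted p of 0.0042. Leaving out each library in turn kept it between 1.303 and 1.89, with an adjusted p of 0.0223 or less.

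Cebpa RNA is rich in G and C, more so than 98.8% of the genes tested. Across genes, the TKO change ran with transcript length (Spearman -0.32) and with GC content (Spearman 0.31). With this trend taken out by a fit across genes, the correction for length and GC, Cebpa changed by 1.38 (limma adjusted p 0.011). The TKO library with the least Cebpa, replicate 3, also had the lowest sum of adipocyte markers of the TKO libraries, below all WT libraries, while its Cebpa was above all WT libraries. The part of adipocyte content in the Cebpa change was not tested.

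Cebpb (ENSMUSG00000056501.3, chr2:167688915-167690418 on the + strand) encodes C/EBPβ, one of the early factors. It read 31.0, 41.3 and 27.5 in TKO libraries, against 19.0, 26.2 and 26.1 in WT libraries. The TKO libraries all lay above the WT libraries, though the lowest TKO value was close to the highest WT value. The change of 0.46 ± 0.18 (SE) missed the threshold (limma adjusted p 0.079). It passed with scaling by library size (0.58, adjusted p 0.047) and by DESeq2 on the recovered reads (adjusted p 0.040, where 50.2% of genes passed), and it was 0.05 (adjusted p 0.74) after correction for length and GC. Cebpb is richer in G and C than 99.9% of the genes tested. It shares 312 bases with Tmem189 on the opposite strand, and the strand setting of the counting is not given in the sources used here, so its values are uncertain. Tmem189 itself differed by 0.18 ± 0.10 (limma adjusted p 0.19).

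Cebpd (ENSMUSG00000071637.5, chr16:15887286-15891031 on the + strand) encodes C/EBPδ, the partner of C/EBPβ in the early phase. It read 27.9, 22.5 and 15.8 in TKO libraries, against 10.8, 16.4 and 19.2 in WT libraries. The groups overlapped, and TKO replicate 3 lay below WT replicates 2 and 3. The change was 0.49 ± 0.26 (SE), with a 95% confidence interval from -0.13 to 1.11 (limma adjusted p 0.17). Cebpd shares 562 bases with Spidr on the opposite strand, so its level is uncertain for the same reason as that of Cebpb. Spidr differed by -0.01 ± 0.07 (adjusted p 0.93).

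Cebpg (ENSMUSG00000056216.9, chr7:35046422-35056573 on the - strand) encodes C/EBPγ, a dimer partner with no activation domain of its own. With 3 seed matches it held the most of the 9 genes. It read 74.8, 70.7 and 83.5 in TKO libraries, against 82.6, 80.2 and 78.5 in WT libraries. The groups overlapped, and the change was -0.08 ± 0.08 (SE), with a 95% confidence interval from -0.26 to 0.10 (limma adjusted p 0.43). Its sign turned with scaling by library size and after correction for length and GC.

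Cebpz (ENSMUSG00000024081.8, chr17:78919006-78937066 on the - strand) carries the C/EBP name but encodes a nucleolar CCAAT-binding protein outside the leucine-zipper family. It read 62.8, 64.1 and 64.7 in TKO libraries, against 84.0, 83.4 and 77.9 in WT libraries. All TKO libraries lay below all WT libraries, and both groups were tight. The change was -0.35 ± 0.06 (SE, limma adjusted p 0.0036), which is 0.784 of the WT level. After correction for length and GC it shrank to -0.16 (adjusted p 0.044). Cebpzos, which shares 85 bases on the opposite strand, differed by 0.29 ± 0.10 and missed the threshold (adjusted p 0.051).

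Pparg (ENSMUSG00000000440.12, chr6:115360951-115490399 on the + strand) encodes PPARγ, the factor without which fat cells do not form. It read 16.8, 16.2 and 10.6 in TKO libraries, against 17.1, 14.03 and 14.8 in WT libraries. TKO replicate 3 was the lowest of the 6 libraries, and the other TKO libraries lay within the WT range. The change was -0.09 ± 0.18 (SE), with a 95% confidence interval from -0.52 to 0.34 (limma adjusted p 0.71). Its sign turned with scaling by library size (0.03) and without TKO replicate 3 (0.11). The gene-level row does not separate the Pparg1 and Pparg2 transcripts, which start at different promoters.

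Of 11 RefSeq promoter windows of 300 bases at 7 of the 9 genes, a single one held any of the motifs searched on both strands. The motifs were the C/EBP motif TTNNGCAA, the sterol element TCACNCCAC and the E-box CACGTG. Also searched were direct repeats of AGGTCA, with 1 base between for PPAR and RXR and 4 bases between for LXR and RXR. The window at the downstream start of Pparg (chr6:115421816-115422115, + strand, GRCm38.p6) held the C/EBP motif at 2 places. These matches have their first bases at -215 and -16 from the start. They are shown, with the motif in capitals, because C/EBPα is the member that changed most and is known to act on Pparg.
upstream match, motif on the opposite strand: ccaagtcTTGCCAAAgcagcag
downstream match, motif on the same strand: accaatcTTTTGCAAgacatag

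The C/EBP motif occurs in 10.8% of the 32851 promoter windows of that table and the repeats in 0.0396% and 0.0152%. The sterol element occurs in 1.24% and the E-box in 7.15%. No match says only that these letters are not in the window. The match is a description of the sequence, and binding was not measured.

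Ppard (ENSMUSG00000002250.15, chr17:28232700-28301474 on the + strand) encodes PPARδ, a widely expressed fatty-acid sensor. It read 36.4, 39.4 and 35.5 in TKO libraries, against 42.5, 53.2 and 51.6 in WT libraries. All TKO libraries lay below all WT libraries. The change was -0.39 ± 0.10 (SE, limma adjusted p 0.019), and -0.55 (adjusted p 0.00096) after correction for length and GC. The call ended with scaling by library size (-0.27, adjusted p 0.088), and without TKO replicate 3 (0.053), WT replicate 2 (0.076) or WT replicate 3 (0.066).

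Ppara (ENSMUSG00000022383.13, chr15:85734983-85802819 on the + strand) encodes PPARα, best known from liver. It read 0.763, 1.14 and 1.04 in TKO libraries, against 0.741, 0.617 and 0.981 in WT libraries, from 37 to 94 recovered reads. The groups overlapped at a level near that of the filter.

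Srebf1 (ENSMUSG00000020538.15, chr11:60199089-60222581 on the - strand) encodes SREBP-1. It read 102, 123.2 and 100.04 in TKO libraries, against 54.9, 66.4 and 77.6 in WT libraries. All TKO libraries lay above all WT libraries. The mean was 108 ± 12.9 in TKO and 66.3 ± 11.3 in WT (SD, n = 3). The change was 0.71 ± 0.14 (SE), about 1.63-fold, with a limma adjusted p of 0.0074, and 0.63 (adjusted p 0.0042) after correction for length and GC. The row does not separate the Srebf1a and Srebf1c transcripts. Rai1, which shares 109 bases on the opposite strand, moved the other way, by -0.58 ± 0.11 (adjusted p 0.0053).

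In the authors' deposited table, the log2 fold change in TKO was 1.79 for Cebpa (false discovery rate 1.31e-06), 0.71 for Srebf1 (2.77e-04), -0.36 for Cebpz (0.0146) and -0.40 for Ppard (0.0324). In the authors' deposited table, Cebpb, Cebpd, Cebpg, Pparg and Ppara had rates between 0.141 and 1.

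**Figure D2:**
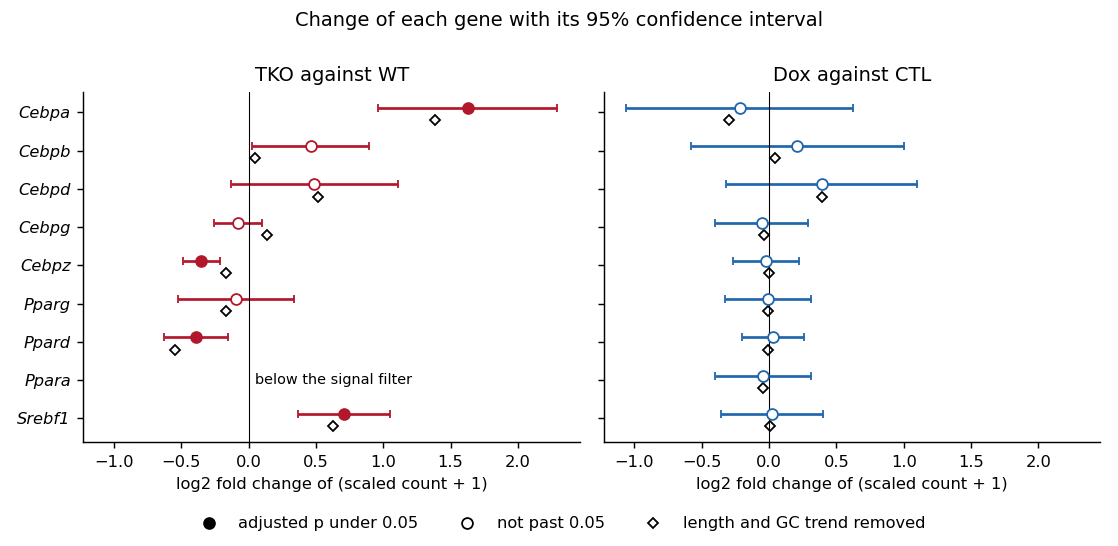
Log2 fold change (horizontal axis) of each gene, for TKO over WT and for Dox over CTL, with its 95% confidence interval from limma (n = 3 per group). Filled circles passed an adjusted p of 0.05 and diamonds are values after correction for length and GC. Cebpa at 1.63 and Srebf1 at 0.71 lie right of 0 in TKO, Cebpz at -0.35 and Ppard at -0.39 left of it, and every interval in Dox crosses 0.

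Levels were compared between genes per kilobase of the chosen transcript. In TKO the order by mean level per kilobase ran Srebf1, Cebpb, Cebpg, Cebpa, Cebpz, Ppard, Pparg, Cebpd and Ppara. In WT it ran Cebpz, Cebpg, Cebpb, Srebf1, Ppard, Pparg, Cebpa, Cebpd and Ppara. Cebpa stood at 15.7 ± 6.84 scaled reads per kilobase in TKO and at 4.55 ± 0.43 in WT (SD, n = 3). It was thus above Pparg in TKO (6.84 ± 1.63 for Pparg) and below Pparg in WT (7.20 ± 0.76 for Pparg), with no overlap between Cebpa and Pparg in either group. Neighbours overlapped for Srebf1 and Cebpb, for Cebpg, Cebpa and Cebpz, and for Pparg and Cebpd in TKO. In WT they overlapped for Cebpg, Cebpb, Srebf1 and Ppard, and for Cebpa and Cebpd. In Dox and in CTL, Cebpb led at 37.7 ± 17.9 and 29.996 ± 2.50 scaled reads per kilobase (SD, n = 3), with Srebf1 next and overlapping it, and Ppara was last at 0.411 ± 0.053 and 0.432 ± 0.042. Between them the order in Dox was Cebpg, Ppard, Cebpz, Cebpa, Cebpd and Pparg, and in CTL Cebpg, Cebpz, Ppard, Cebpa, Pparg and Cebpd, each overlapping the next.

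The lists that follow were chosen with earlier results of these data known, so each is given by its counts, to be set beside those shares of all genes. Counts by single library, such as genes above or below all WT libraries, were made for the lists only. They have no share of all genes beside them. With a TKO or WT library left out, 3938 to 5723 of the 12649 genes tested passed, against 5796 with none left out.

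The list of C/EBP relatives and dimer partners, which also holds the pseudokinase Trib3, had few that passed. Of 7 tested, 2 rose and none fell, with a median change of 0.01. Trib3, a stress-induced pseudokinase, read 53.3, 71.3 and 70.7 in TKO libraries, against 33.8, 38.6 and 45.6 in WT libraries, with no overlap (0.71 ± 0.15, limma adjusted p 0.0092). Atf5, a leucine-zipper factor, rose by 0.56 ± 0.13 (adjusted p 0.014), which was not past the threshold after correction for length and GC (0.23, adjusted p 0.067). After that correction 1 of the 7 rose and 2 fell. Ddit3, which encodes the inhibitory C/EBP homologous protein, read 63.3, 72.4 and 74.9 in TKO libraries, against 70.0, 71.1 and 67.4 in WT libraries, overlapping.

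Partners and coregulators of the PPARs were lower almost throughout. Of 18 tested, 16 fell and 1 rose, with a median change of -0.53 against -0.001 over all genes. In each of the 3 TKO libraries, 16 of the 18 lay below all WT libraries and 2 above. The share of all genes placed so in a single library was not counted. Whole groups did not overlap for 58.8% of all genes tested, in either direction. Ncor1, a corepressor that holds PPARs silent, read 174, 138 and 181 in TKO libraries, against 304, 316 and 301 in WT libraries (-0.91 ± 0.11, limma adjusted p 0.0011). Crebbp, a histone acetyltransferase and coactivator, read 40.3, 40.2 and 44.9 in TKO libraries, against 74.1, 78.9 and 75.7 in WT libraries (-0.85 ± 0.07, adjusted p 3.4e-04).

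Corepressors and coactivators thus fell together. Cited2, a coactivator that binds Crebbp, fell by 0.82 ± 0.12 (adjusted p 0.0026), and Ncoa1, a steroid receptor coactivator, by 0.53 ± 0.07 (adjusted p 0.0019). Rxrb, a retinoid X receptor, was the gene that rose, at 28.7, 33.6 and 32.5 in TKO libraries, against 21.7, 20.6 and 22.4 in WT libraries (0.53 ± 0.08, adjusted p 0.0027). The transcripts of this list had a median length of 7430 bases, against 3154 bases for all genes tested. After correction for length and GC, 14 fell and 1 rose, with a median of -0.44, and with scaling by library size 12 fell and 2 rose. Leaving out each library left 12 to 16 that fell.

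**Figure D3:**
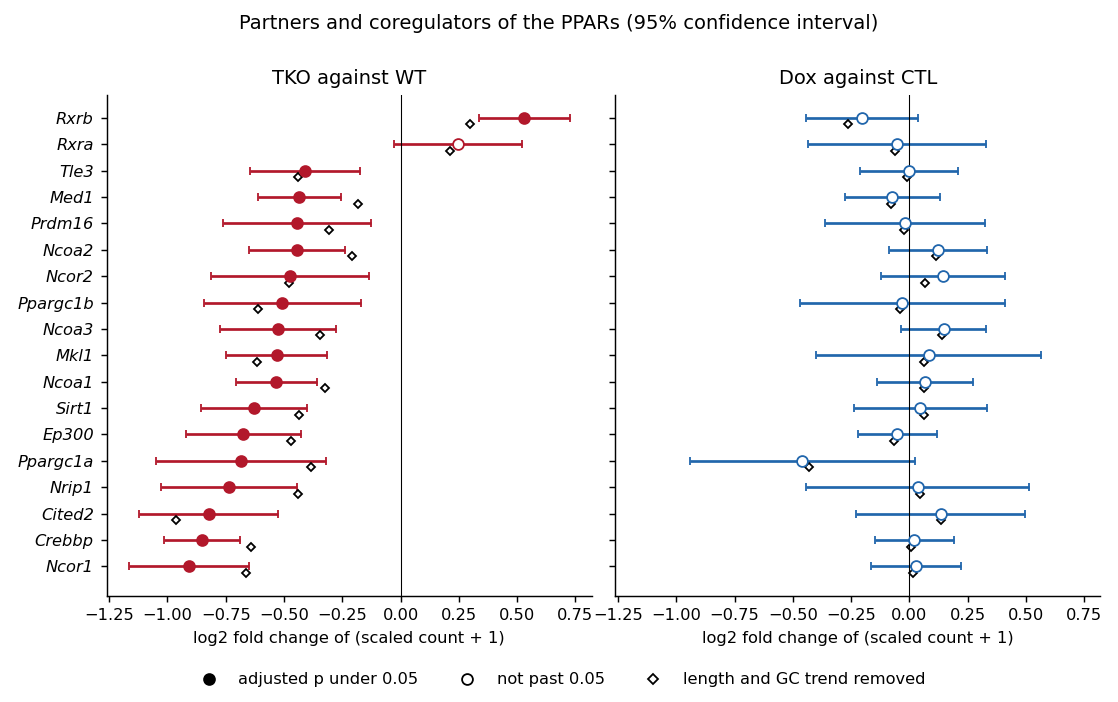
Log2 fold change (horizontal axis) of the 18 tested partners and coregulators of the PPARs, for TKO over WT and for Dox over CTL, with 95% confidence intervals from limma (n = 3 per group). Filled circles passed an adjusted p of 0.05 and diamonds are values after correction for length and GC. In TKO, 16 genes lie left of 0 and passed, Rxrb lies at 0.53, and in Dox none passed.

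Of 15 tested activators known to act upstream of Cebpa and Pparg, 7 fell and none rose, with a median of -0.32. The share that passed, 46.7%, was close to the 45.8% of all genes, of which 22.7% were lower and 23.2% higher. Ebf1, an early B-cell factor that acts in adipogenesis, read 106, 57.5 and 75.3 in TKO libraries, against 206, 185 and 153 in WT libraries (-1.21 ± 0.22, limma adjusted p 0.0056). Creb1, the cAMP-responsive activator of Cebpb, fell by 0.65 ± 0.08 (adjusted p 0.0013), Klf9, a Krüppel-like factor, by 0.55 ± 0.07 (adjusted p 0.0016), and Egr2, also known as Krox20, by 0.85 ± 0.18 (adjusted p 0.0096). After correction for length and GC, 6 fell and 1 rose, the insulin receptor gene Insr (0.25, adjusted p 0.014). The count was 4 with scaling by library size, and 4 without TKO replicate 3, WT replicate 1 or WT replicate 3.

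Known inhibitors of adipogenesis passed in both directions. Of 13 tested, 5 fell and 1 rose, with a median of -0.34. The 46.2% that passed is close to the 45.8% of all genes and says nothing particular to this list. Tcf7l2, a Wnt-pathway factor, fell by 0.81 ± 0.09 (limma adjusted p 8.9e-04), Nr2f2, a nuclear receptor, by 0.75 ± 0.10 (adjusted p 0.0015), and Zfp521, a zinc-finger antagonist of Ebf1, by 0.80 ± 0.15 (adjusted p 0.0053). Id3, which encodes a helix-loop-helix protein that blocks DNA binding of its partners, read 235, 152 and 168 in TKO libraries, against 53.8, 59.6 and 63.8 in WT libraries, with no overlap (1.61 ± 0.16, adjusted p 7.1e-04). Without TKO replicate 1, 9 fell and 1 rose. Without TKO replicate 3, WT replicate 1 or WT replicate 2, 3 fell and 1 rose.

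Adipocyte genes that PPARγ and C/EBPα are known to activate split the TKO libraries. Of 22 on the list, 19 were listed and 14 tested, and 2 rose and none fell, with a median of 0.68. Dgat2, which makes triglyceride, read 11.3, 12.95 and 5.32 in TKO libraries, against 3.28, 3.38 and 3.89 in WT libraries (1.19 ± 0.29, limma adjusted p 0.015). Adrb3, the β3-adrenergic receptor, read 3.42, 3.95 and 1.27 in TKO libraries, against 0.618, 0.933 and 0.872 in WT libraries (1.03 ± 0.29, adjusted p 0.028). In these genes and in Fabp4, TKO replicate 3 also lay above all WT libraries. The call for Dgat2 was lost on leaving out WT replicate 1 (0.056) or WT replicate 2 (0.055). The call for Adrb3 ended without any single library other than TKO replicate 3 (up to 0.092).

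Fabp4, a fatty-acid carrier, read 83.5, 80.7 and 27.1 in TKO libraries, against 25.5, 25.997 and 25.6 in WT libraries (adjusted p 0.063). Adipoq, the hormone adiponectin, read 15.97, 16.3 and 0.787 in TKO libraries, against 1.18, 1.85 and 2.80 in WT libraries (adjusted p 0.20). Of the 14 genes, 12 in TKO replicate 1 and 13 in TKO replicate 2 lay above all WT libraries, but 3 in TKO replicate 3, where 8 lay below all WT libraries. The matching shares of all genes were not counted. Without TKO replicate 3, 12 of the 14 rose and none fell. This fit leaves out the library that went the other way. Over the fits with a library left out, 3938 to 5723 of all 12649 genes passed, both directions together. Leaving out WT replicate 1, or WT replicate 2, gave a count of 0, and without WT replicate 3 or TKO replicate 1 it was 1 that rose. Without TKO replicate 2, 1 rose and 1 fell. The mature-adipocyte marker sums given above split the TKO libraries in the same way, and their part in these changes was not tested. Fabp4 and Adipoq are named here because of the difference between libraries, after their values were seen.

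**Figure D4:**
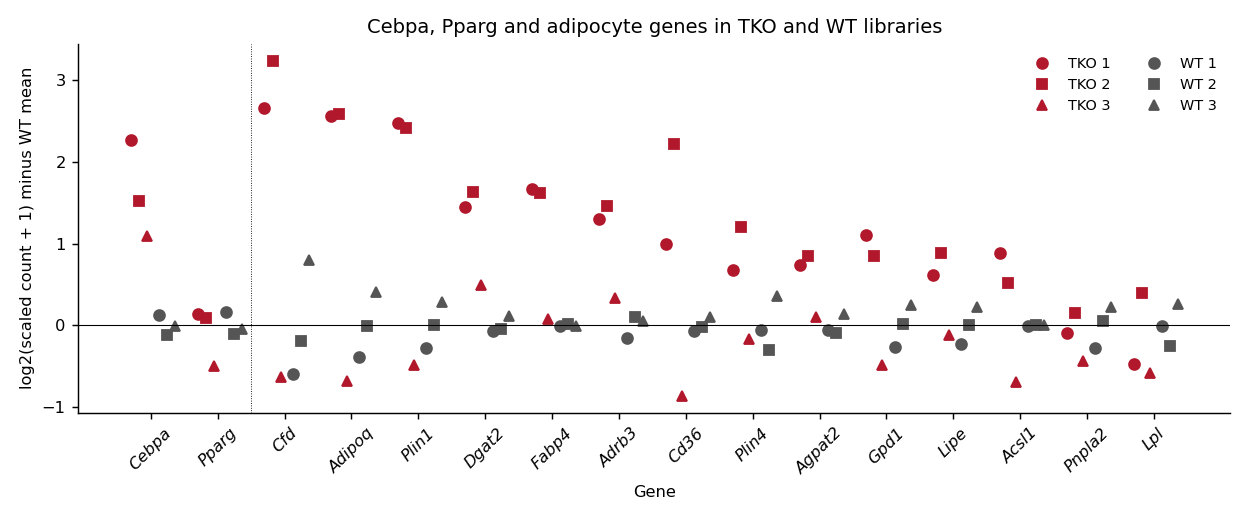
Log2 of the scaled read count plus 1, minus the WT mean (vertical axis), for Cebpa, Pparg and the 14 tested adipocyte genes in each TKO and WT library. Each symbol is 1 library. TKO replicates 1 and 2 lie above WT for most adipocyte genes and TKO replicate 3 lies at or below WT for most of them, whereas Cebpa is above all WT libraries in all 3 and Pparg is not.

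Genes of fatty acid oxidation that PPARα and PPARδ are known to control moved both ways. Of 16 tested, 6 rose and 3 fell, with a median of 0.27, so that 56.25% passed, against 45.8% of all genes. Hadhb, a subunit of the mitochondrial trifunctional protein, rose by 0.58 ± 0.06 (limma adjusted p 8.4e-04), Acaa2, a thiolase, by 0.66 ± 0.08 (adjusted p 0.0012), and Acadvl, the very-long-chain acyl-CoA dehydrogenase, by 0.77 ± 0.11 (adjusted p 0.0024). Fabp3, a fatty-acid carrier of muscle, read 7.94, 8.42 and 9.66 in TKO libraries, against 25.5, 25.4 and 21.5 in WT libraries (-1.38 ± 0.10, adjusted p 3.1e-04). The groups of Fabp3 were far apart, and its change was -1.71 after correction for length and GC.

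Of 16 tested lipogenic genes known as SREBP-1 targets, 1 rose and 5 fell, with a median of -0.06. That is 37.5% that passed, against 45.8% of all genes. Acacb, the mitochondrial acetyl-CoA carboxylase, rose by 0.59 ± 0.15 (limma adjusted p 0.0205). Fads2, the Δ6 desaturase, read 105, 97.1 and 120 in TKO libraries, against 234, 260 and 221 in WT libraries (-1.15 ± 0.10, adjusted p 4.6e-04). Fads1, the Δ5 desaturase, fell by 0.40 ± 0.09 (adjusted p 0.0101), Lpin1, a phosphatidate phosphatase, by 0.39 ± 0.09 (adjusted p 0.013), and Elovl6, an elongase, by 0.44 ± 0.10 (adjusted p 0.014).

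Fasn, the fatty acid synthase, read 451, 371 and 467 in TKO libraries, against 388, 407 and 422 in WT libraries, overlapping (0.08 ± 0.10, adjusted p 0.57); it is named as the best-known member of the list. The split of the list depended on the scaling, with 5 that rose and 3 that fell with scaling by library size, and 4 and 2 after correction for length and GC. Fads1 missed the threshold with scaling by library size (adjusted p 0.058), and Lpin1 (0.061) and Elovl6 (0.0596) after that correction. Elovl6 also missed it without WT replicate 1 (0.055). The list had no gene that rose once any one WT library was left out, with 3 that fell without WT replicate 1, 5 without WT replicate 2 and 4 without WT replicate 3, so the Acacb call rests on all 3. Without TKO replicate 2, 3 rose and 5 fell.

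The list of genes that control SREBP release, with the liver X receptors, had few that passed. Of 9 tested, 1 rose and 1 fell, with a median of 0.09. Insig2, which retains SREBP in the endoplasmic reticulum, read 46.9, 39.9 and 37.9 in TKO libraries, against 28.7, 24.9 and 24.8 in WT libraries (0.65 ± 0.10, limma adjusted p 0.0032). Fbxw7, part of a ubiquitin ligase that degrades nuclear SREBP, fell by 0.26 ± 0.06 (adjusted p 0.014). Without TKO replicate 3, 2 rose and 2 fell. Without any one WT library, 1 rose and none fell. The Fbxw7 call ended with scaling by library size (0.11), after correction for length and GC (0.12) and without WT replicate 1 (0.054), WT replicate 2 (0.053) or WT replicate 3 (0.052).

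Acute-phase genes that C/EBPβ and C/EBPδ are known to activate gave 2 that rose and 1 that fell of 10 tested, with a median of 0.51. Ptx3, a secreted pentraxin, read 326, 198 and 176 in TKO libraries, against 130, 103 and 81.2 in WT libraries (1.12 ± 0.26, limma adjusted p 0.014). Socs3, a brake on cytokine signalling, rose by 0.47 ± 0.08 (adjusted p 0.0047), and Nfkbiz, an inducible regulator of NF-κB, fell by 0.82 ± 0.13 (adjusted p 0.0031). TKO replicate 2, with the macrophage marker sum of 267, had the highest value of the 6 libraries for 5 of the 10 genes. Without TKO replicate 2, 4 genes of the list passed, and without TKO replicate 3, 6 passed. The part of that library's macrophage markers in this list was not tested.

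Likeness of pattern was measured as the root mean square difference of the log2 values over all 12 libraries, each centred on its table, among 9933 genes. Nearest to Cebpa were Id1 at 0.242, Id3 at 0.247, Tmed1 at 0.286 and Tbxa2r at 0.290, where the root mean square of the Cebpa profile itself was 0.707. Id1, an inhibitor of DNA binding like Id3, was higher in TKO by 1.05 ± 0.21 (SE). Tmed1, a cargo receptor of the secretory pathway, was higher by 1.35 ± 0.09, and Tbxa2r, the thromboxane receptor, by 1.26 ± 0.18. These genes were picked for likeness to Cebpa over the same libraries, so their rise in TKO follows from the choice. Nearest to Srebf1 were Unc45a at 0.0786, Mrpl4 at 0.0870, Plcd3 at 0.0881 and Tbcc at 0.0910, with a spread of Srebf1 of 0.309. Nearest to Pparg were Pxmp4 at 0.0739, Tbc1d2b at 0.106, Ndufb3 at 0.110 and Tctn2 at 0.115, with a spread of Pparg of 0.185.

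In Dox against CTL, none of the 9 genes passed, and neither did any other gene (0% of 12634 by limma, where 748 genes or 5.92% had an unadjusted p under 0.05, 0 by edgeR and 99 or 0.784% by DESeq2). The groups overlapped for all 9, where 12.2% of all genes tested did not overlap. Same-numbered Dox and CTL libraries varied together, and with that pairing 265 genes passed (2.1%), none of them among the 9.

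Cebpa read 19.5, 44.3 and 22.6 in Dox libraries, against 21.6, 43.0 and 33.8 in CTL libraries. Replicate 2 was highest in both groups, and the pairs differed by -0.14, 0.04 and -0.56 on the log2 scale. The change was -0.22 ± 0.35 (SE), with a 95% confidence interval from -1.06 to 0.62 (limma adjusted p 0.99), or ± 0.12 with replicates paired (adjusted p 0.38). It passed with pairing and correction for length and GC (-0.29, adjusted p 0.044), where 7.74% of genes did, and with pairing alone without replicate 2 (-0.35, adjusted p 0.034, where 12.1% did). Without replicate 1 the paired change was -0.26 and without replicate 3 it was -0.05, and neither passed. With pairing and that correction the call ended without replicate 1 (0.17) and without replicate 3 (0.083). Paired fits without a replicate rest on the spread limma pools over genes. Mature-adipocyte markers, with Cidec and Lep not listed, had lower sums in Dox in each pair. The sums were 6.24, 8.44 and 17.0 in Dox libraries and 8.15, 9.77 and 31.1 in CTL libraries. Only 1 of these markers reached the minimum signal to be tested, and its change of -0.32 was not called. The part of these markers in the Cebpa change was not tested.

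Cebpb read 56.5, 83.8 and 30.1 in Dox libraries, against 45.02, 48.9 and 41.4 in CTL libraries. Cebpd read 38.2, 57.7 and 23.8 in Dox libraries, against 24.8, 33.5 and 27.4 in CTL libraries. For both genes Dox lay above CTL in replicates 1 and 2 and below it in replicate 3, and the Dox libraries spread more widely than the CTL libraries. The change was 0.21 ± 0.33 for Cebpb and 0.39 ± 0.30 for Cebpd (SE, limma adjusted p 0.99 and 0.95, and 0.60 and 0.25 with pairing). The pairs differed by 0.32, 0.76 and -0.45 for Cebpb and by 0.60, 0.77 and -0.20 for Cebpd on the log2 scale. Without replicate 3, the pair of opposite sign, the paired changes were 0.54 for Cebpb (limma adjusted p 9.2e-05) and 0.69 for Cebpd (adjusted p 3.7e-07). This fit, where 4.68% of genes passed, holds 2 pairs and was added after seeing the data. Its p-values rest on the spread limma pools over genes. Whether these changes pass thus rests on replicate 3.

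**Figure D5:**
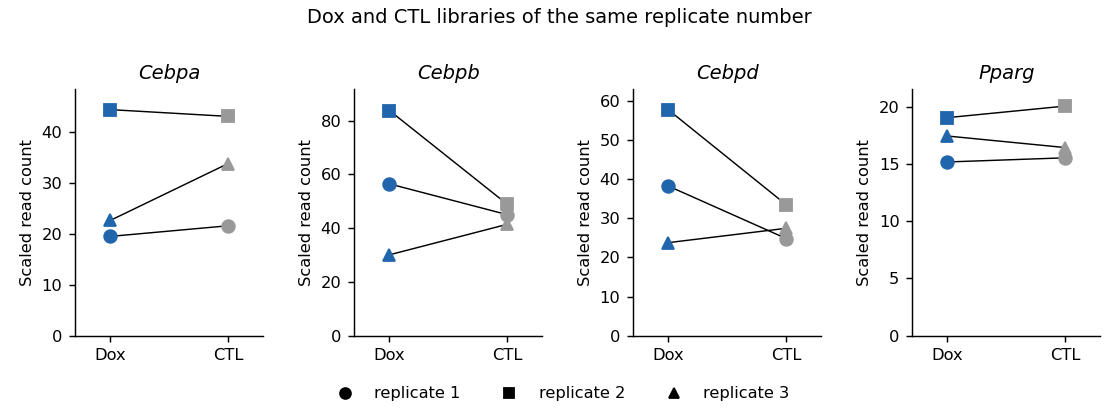
Scaled read count (vertical axes, starting at 0) of Cebpa, Cebpb, Cebpd and Pparg in Dox and CTL libraries, with a line joining libraries of the same replicate number. For Cebpb and Cebpd, Dox is above CTL in replicates 1 and 2 and below it in replicate 3. For Pparg the 3 lines are nearly level.

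The remaining genes did not pass under pairing either. Pparg read 15.2, 19.1 and 17.5 in Dox libraries, against 15.6, 20.1 and 16.5 in CTL libraries, a change of -0.01 with a 95% confidence interval from -0.33 to 0.31. Ppard read 43.7, 48.5 and 41.2 in Dox libraries, against 43.5, 40.4 and 46.6 in CTL libraries, and its interval ran from -0.20 to 0.26. Ppara read 1.56, 1.44 and 1.21 in Dox libraries, against 1.42, 1.64 and 1.37 in CTL libraries, from 29 to 38 recovered reads.

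Srebf1 read 94.96, 129 and 109 in Dox libraries, against 92.2, 106 and 130 in CTL libraries, with an interval from -0.36 to 0.40. Cebpg and Cebpz also hold seed matches. Cebpg read 75.3, 55.2 and 72.2 in Dox libraries, against 79.4, 62.7 and 67.6 in CTL libraries, with an interval from -0.40 to 0.29. Cebpz read 59.2, 50.8 and 53.3 in Dox libraries, against 60.0, 56.4 and 49.6 in CTL libraries, with an interval from -0.27 to 0.22. For Cebpa and Srebf1, the intervals in Dox reached down to -1.06 and -0.36. Their rise in TKO (1.63 and 0.71) had intervals from 0.96 to 2.29 and from 0.37 to 1.05. Loss and induction of miR-26 were not checked, so these intervals are no test of opposite effects. The difference between the TKO and Dox changes was not tested, because the tables were normalized separately.

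None of the pathway lists held a gene that passed in Dox against CTL without pairing by limma or edgeR. By DESeq2 without pairing, 3 genes of these lists passed, Angptl4 (adjusted p 0.019), Slc25a20 (adjusted p 0.012) and Ebf1, the last of which was 81.5, 81.1 and 79.5 in Dox libraries and 99.4, 96.4 and 101 in CTL libraries. The following genes passed by limma with pairing. Angptl4, a lipoprotein lipase inhibitor and PPAR target, read 55.7, 35.1 and 46.4 in Dox libraries, against 28.5, 26.2 and 21.0 in CTL libraries, higher in 3 of 3 pairs (0.82 ± 0.13, limma adjusted p 0.021 with pairing). Lpl, lipoprotein lipase, read 989, 1060.35 and 586 in Dox libraries, against 1422, 1367 and 867 in CTL libraries, lower in 3 of 3 pairs (-0.48 ± 0.08, adjusted p 0.024 with pairing). Slc25a20, the mitochondrial carnitine carrier, was lower by 0.50 ± 0.09 (adjusted p 0.031 with pairing).

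Stat5b, an upstream activator, was higher by 0.40 ± 0.08 (limma adjusted p 0.037 with pairing), and Dlk1, the preadipocyte inhibitor known as Pref-1, by 0.39 ± 0.08 (adjusted p 0.043 with pairing). Without replicate 1 the paired adjusted p was 0.31 for Stat5b, 0.11 for Dlk1, 0.21 for Lpl and 0.14 for Slc25a20, while that of Angptl4 stayed at 0.0058 or less without any one pair. The PPAR partners and coregulators, lower in TKO, had a median change of 0.02 in Dox, with 10 of 18 above 0 and none past the threshold.

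Of the 10 acute-phase genes, 9 were below 0 in Dox, with a median change of -0.49 and none past the threshold in the fit over all 6 libraries or with pairing. Dox replicate 3, the lowest Dox library for Cebpb and Cebpd, was the lowest of the 6 libraries for 9 of these 10 genes. In the paired fit 8 of the 10 fell without replicate 2, where 12.1% of all genes passed, and 1 of the 10 fell without replicate 1 or without replicate 3. Macrophage and leukocyte markers were also lower in Dox than in CTL in each pair, at 130, 73.9 and 28.2 in Dox libraries and 159, 76.2 and 39.0 in CTL libraries, with Cd3e and Cd79a not listed. Endothelial, epithelial and Schwann marker sums were higher in Dox in each pair. Stromal, mesothelial and skeletal muscle sums went both ways between pairs. The part of any of these markers in the acute-phase changes was not tested.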

How the data were processed

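Messenger RNA of 12 libraries in 4 groups of 3 was sequenced as single reads of 75 bases, per the labels' protocols. TopHat2 2.0.12, featureCounts 1.4.6, edgeR 3.8.6 and StringTie 1.2.2 on GRCm38 (mm10) are named in the submitters' processing notes, which give no role for StringTie, and the strand setting of the counting is not given in the sources used here. The signal deposited by the authors is gene counts divided by a factor for each library, judged from the values, since 99.99% to 100% of values came out as whole reads (within 0.1 read). Each table lists only genes above 0 in all 6 of its libraries, and the tables were normalized separately. The log2 fold changes, the p-values with their false discovery rates and the likelihood-ratio score in the authors' deposited tables come from edgeR, per the file headers and the submitters' notes. The headers of Dox replicates 2 and 3 end in the same library number, and 0 columns belonged to no known sample.

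The values were tested with limma 3.58.1 in R 4.3.3 on log2(signal + 1), for genes that reached a signal of 1 in 3 or more libraries, each table alone, unpaired, with Benjamini-Hochberg adjustment over all genes tested. A count test on the deposited values was replaced in this way because they are scaled. The recovered reads were tested with edgeR 4.0.16 and DESeq2 1.42.0 as alternatives. The correction for length and GC took natural splines of transcript length and GC content (4 degrees of freedom each, GENCODE vM21) out of the change across genes. Same-numbered Dox and CTL libraries deviated together (r = 0.86, 0.58 and 0.74 over genes). The labels give replicate numbers but name no pairs, so pairing by number is an assumption drawn from these values. Paired values are given where they change a call. With 3 libraries a group, no exact permutation test can go below 0.1. Only the main unpaired limma fit, in each comparison, was tested on simulated data. Python 3.11.15, numpy 2.4.6, pandas 2.3.3, scipy 1.17.1 and matplotlib 3.10.9 were also used.

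The 9 genes and the 9 gene lists were chosen with earlier results of these data known. In each list, up to 4 genes with the smallest adjusted p among those past the threshold in TKO are named, and up to 2 in Dox, where the paired fit was used because none passed by limma without pairing. Rxrb, Acacb, Insr, Ebf1 in Dox, Ddit3, Fasn, Fabp4 and Adipoq were named after their values were seen. Intervals on fold changes are at 95% confidence.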

Additional observations from a re-analysis of the deposited data

How the results depend on the processing

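Each comparison was fitted under 16 alternatives set beforehand, and paired fits of Dox against CTL that leave out each numbered pair were added after seeing the data. Those leave 1 residual degree of freedom per gene, so their p-values rest on the spread limma pools over genes. In TKO against WT, between 4960 and 6354 genes passed under the alternatives other than leave-one-out and between 3938 and 5723 with a library left out, against 5796 as reported, and 3 to 5 of the 9 genes passed. Library numbers did not pair TKO with WT libraries (r = 0.45, -0.13 and -0.29, and TKO replicate 2 correlated best with WT replicate 3 at 0.53). The replicate block there gave 5101 genes and the same number of the 9, and with the correction for length and GC as well, Cebpz missed the threshold (adjusted p 0.074). The sign of Cebpg turned with library-size scaling (0.046), with the correction (0.14) and with block and correction (0.14), and that of Pparg with library-size scaling (0.026), while leaving out each library put Pparg between -0.20 and 0.11. In Dox against CTL, 99 genes passed by DESeq2, 265 with the replicate block and 977 with block and correction, which called 1 of the 9 genes. Leaving out libraries or pairs gave 0 to 1534 genes and 0 to 2 of the 9. Ppard was -0.0047 with the correction, paired or not. Over all fits with a library or pair left out, the change in Dox ran from -0.57 to 0.0073 for Cebpa, -0.13 to 0.60 for Cebpb, 0.086 to 0.71 for Cebpd (0.39 as reported), -0.14 to 0.083 for Cebpg, -0.097 to 0.042 for Cebpz, -0.079 to 0.096 for Pparg, -0.085 to 0.13 for Ppard, -0.11 to 0.018 for Ppara and -0.11 to 0.16 for Srebf1. Causes of these shifts were not tested. Ppara rests on 29 to 94 recovered reads per library, which limits its precision.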
